A study of Mus musculus with 20 samples.

Results

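The integrin genes described here are 10 genes of the deposited expression table, chosen by their gene names (Itga1, Itga4, Itga6, Itgae, Itgal, Itgav, Itgb1, Itgb2, Itgb3 and Itgb7) among 53714 genes in all. They were read in CD4+ iNKT1 cells, invariant natural killer T cells of the interferon-γ-producing subset, which were sorted by flow cytometry with a CD1d tetramer from female mice 8 to 12 weeks old and sequenced in bulk. The 20 libraries fell into 7 groups. BALB/cAnNCrl mice (BALB/c) gave 3 libraries of liver_H and 2 of liver_C, and C57BL/6N mice (BL6) gave 3 libraries each of thymus, blood, liver_H, liver_C and spleen. The titles of BL6 libraries N0962 and N0963 give wild type, and no genetic change is named for any group. Liver_H stands for liver taken through an enzyme step (collagenase D plus DNase I, 30 min at 37 °C), whereas liver_C, spleen and thymus were meshed in the cold without enzymes. Livers of both preparations came from perfused mice and passed a Percoll gradient. Liver and spleen cells were gated as CXCR3+ and CD138-, while thymus cells were gated as CD122+ without CD138. Gate and organ therefore cannot be told apart in any comparison with thymus. The paper describes neither the gate nor the preparation of blood cells. Spleen and liver cells were pools of 4 to 6 mice per library, and the pool size for blood and thymus is not given in the sources used here. Livers were split between both preparations, but the labels do not say which libraries share mice, so p-values measure the spread between libraries.

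Integrins are cell surface receptors made of an α and a β chain, and they let lymphocytes adhere to vessel walls, to other cells and to the matrix of a tissue. Itgal and Itgb2 encode the chains of LFA-1, the receptor for ICAM adhesion molecules, which is known to hold iNKT cells in the mouse liver. Itgb7 pairs with the product of Itga4, giving the receptor for the mucosal addressin MAdCAM, or with that of Itgae (CD103), giving the receptor for E-cadherin of epithelial cells. Itgb1 pairs with the chains of Itga1 (CD49a, which binds collagen), Itga4 (which binds VCAM and fibronectin), Itga6 (which binds laminin) and Itgav, and Itgb3 pairs with Itgav to bind vitronectin and related matrix proteins.

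Values are normalized reads, that is the read count of a gene divided by the size factor of its library, and each library held 9336861 to 22879834 reads. The iNKT1 genes Cd3e, Cd4, Tbx21, Cxcr3, Il2rb, Zbtb16, Klrb1c and Ifng were present in every group, with a summed level of 28921 to 56041 normalized reads in each library. Klrb1c, which encodes the NK1.1 antigen of BL6 mice, had 205 to 245 normalized reads in the 5 BALB/c libraries and 2020.4 to 3314 in the 15 BL6 libraries. The thymus libraries stood apart: 7 markers of CD4 CD8 double-positive thymocytes (Rag1, Rag2, Ptcra, Dntt, Cd8a, Cd8b1 and Arpp21) summed to 10977 to 24891 normalized reads there, against 193 to 2807 in blood, 48.3 to 761 in BL6 liver_H, 13.6 to 51.7 in BL6 liver_C and 71.3 to 168 in spleen. All 7 were called higher in thymus than in spleen and than in BL6 liver_C, and 2 of 7 (Cd8a and Ptcra) than in blood, while 5.79%, 4.27% and 3.13% of all genes tested were called higher in these 3 comparisons. Of the 8 iNKT1 genes, 3 were called lower in thymus than in spleen, 5 than in BL6 liver_C and 5 than in blood, against 4.05%, 4.13% and 3.49% of all genes. In BALB/c liver_H the thymocyte markers summed to 4.29 to 2540 normalized reads, the highest value coming from library N0971. They summed to 14.6 to 453 in BALB/c liver_C.

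RefSeq promoter entries were at hand for 5 of the 10 members, and 3 of them are printed because these genes carried differences between organs: Itga1, which was lowest in spleen, and Itgav and Itgb1, which were both lower in thymus than in liver_C and blood. The windows cover the 250 bases before the gene start in GRCm38.p6, from chr13:115101965-115102214 on the minus strand for Itga1, chr2:83724147-83724396 on the plus strand for Itgav and chr8:128685404-128685653 on the plus strand for Itgb1. Capitals mark exact matches, on either strand, to the ETS core GGAAGT or to the Sp and KLF core GGGCGG.
Itga1: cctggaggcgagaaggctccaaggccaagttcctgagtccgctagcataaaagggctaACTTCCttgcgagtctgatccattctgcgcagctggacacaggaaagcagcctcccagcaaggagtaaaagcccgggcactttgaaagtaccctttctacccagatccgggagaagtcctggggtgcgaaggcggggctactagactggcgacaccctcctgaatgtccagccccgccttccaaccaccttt
Itgav: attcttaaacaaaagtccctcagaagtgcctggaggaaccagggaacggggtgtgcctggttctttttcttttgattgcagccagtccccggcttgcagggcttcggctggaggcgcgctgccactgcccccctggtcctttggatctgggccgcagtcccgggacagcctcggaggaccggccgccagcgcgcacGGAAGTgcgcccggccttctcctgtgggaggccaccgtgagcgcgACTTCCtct
Itgb1: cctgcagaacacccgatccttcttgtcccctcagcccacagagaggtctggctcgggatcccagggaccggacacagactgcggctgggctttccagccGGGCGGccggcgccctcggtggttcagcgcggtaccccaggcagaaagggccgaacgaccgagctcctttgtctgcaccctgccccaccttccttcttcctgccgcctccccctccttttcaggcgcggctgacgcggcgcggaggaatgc
The ETS core occurred in the windows of Itga1 (1 match) and Itgav (2 matches), and the Sp and KLF core in that of Itgb1 (1 match), none of them overlapping. Of the 32851 promoter windows of the same length, 19.7% hold the ETS core and 32.7% the Sp and KLF core. The RUNX core TGTGGT, which 14.0% of the windows hold, matched none of the 3 printed here.

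Levels of different genes were set side by side per kilobase of the gene length given with the values. Which transcripts of a gene the cells used was not tested, so such comparisons are rough. Per kilobase, Itgb2 was the most abundant member in all 7 groups, with 2739 ± 337 normalized reads per kilobase in thymus (SD, n = 3) and 4562 ± 425 in spleen (SD, n = 3). It made up 40.6% of the summed level of the 10 members in thymus and 53.5% in BALB/c liver_C, the lowest and the highest share. Its α partner Itgal ranked second in each group, so that the LFA-1 pair led throughout. Itgb7 and Itgb1 came next in each group. The α chains Itgav, Itga1, Itga4 and Itga6 lay far lower, between 20.7 ± 8.65 for Itga1 in spleen (SD, n = 3) and 110.4 ± 67.0 for Itga1 in BALB/c liver_C (SD, n = 2) per kilobase. Itgae was the least abundant member in the 6 groups other than thymus and the fifth of 10 in thymus, where it held 7.94% of the summed level.

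**Figure D1:**
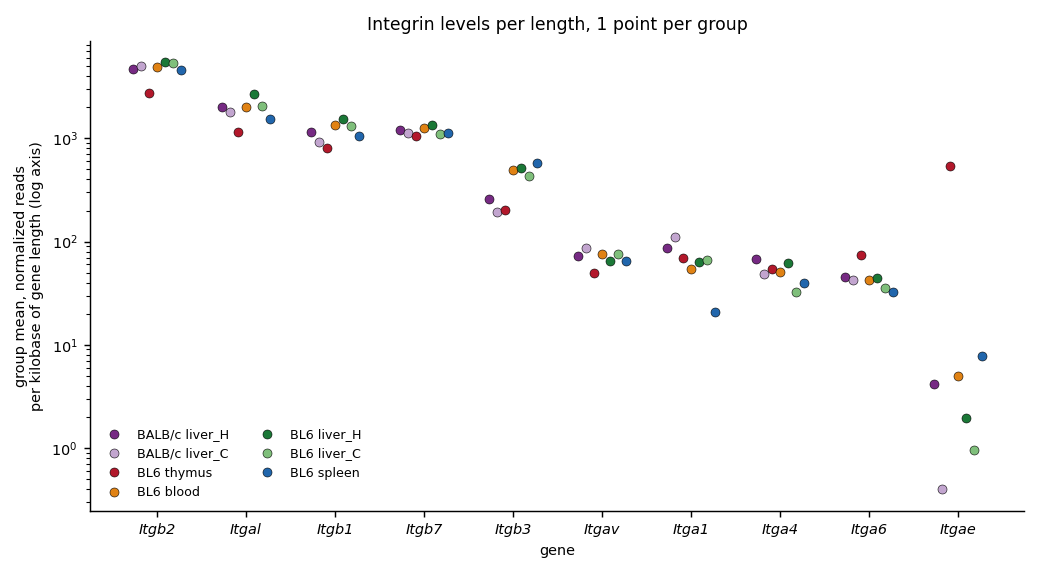
Mean normalized reads per kilobase of gene length (log axis) of the 10 integrin genes, with 1 point for each of the 7 groups. Itgb2 and Itgal stand highest in every group, and Itgae spans from 0.398 in BALB/c liver_C to 536 in BL6 thymus.

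Differences between groups were tested over 14170 genes, by limma fits to log2(normalized reads + 1), and a member is called higher or lower where the p-value, adjusted over all these genes, was under 0.05. All 10 members passed the filter on low values, which asked for 10 or more normalized reads in 3 or more libraries. Over the 5 BL6 groups, an F test called 8 of 10 members, and 14.9% of all genes tested. The exceptions were Itga4 (adjusted p = 0.122) and Itgb7 (adjusted p = 0.207). In bulk RNA, fewer cells with a transcript and less transcript per cell cannot be told apart.

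**Figure D2:**
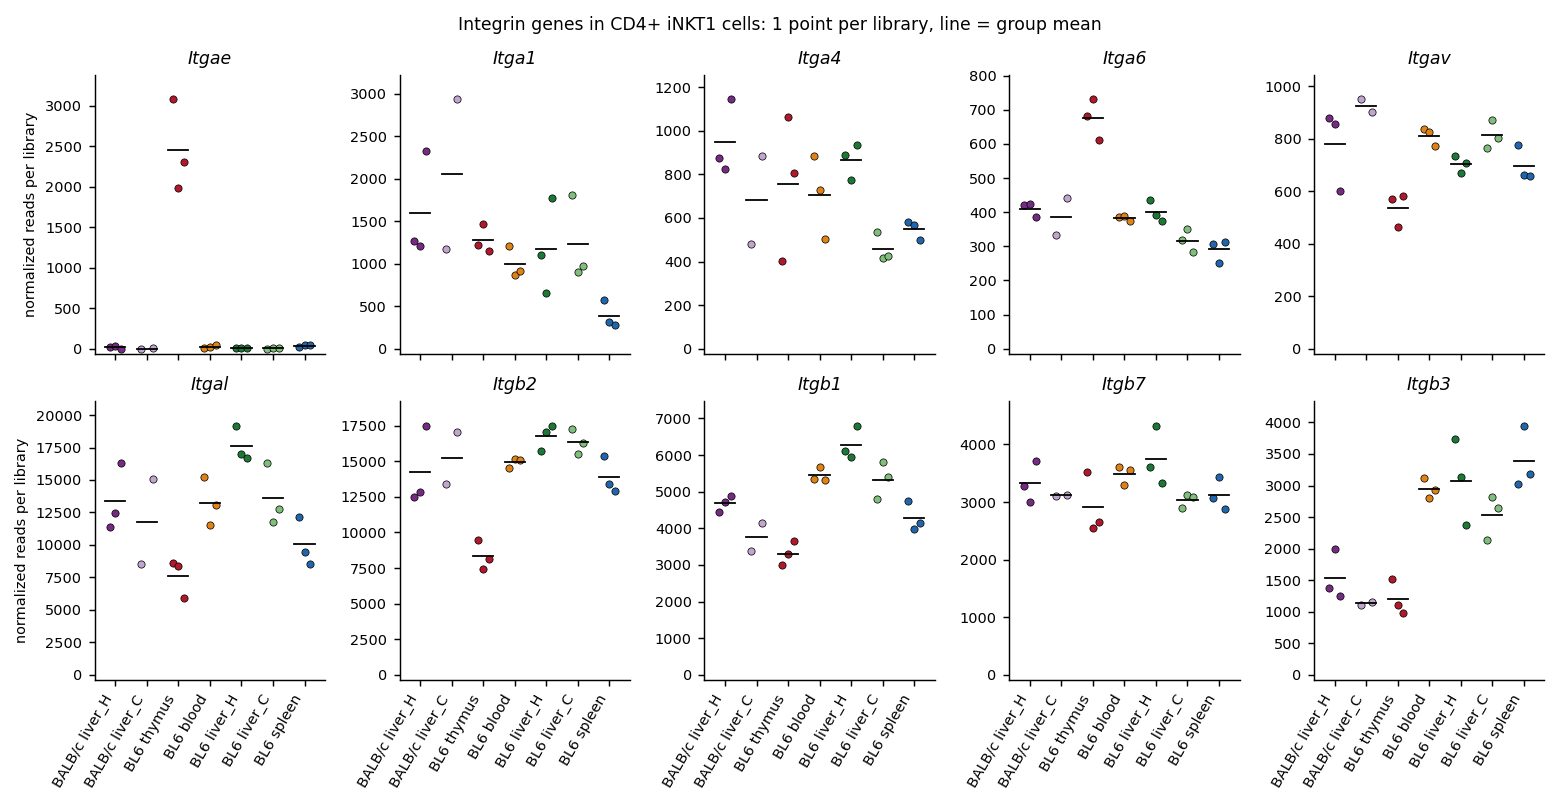
Normalized reads of each integrin gene in the 20 libraries, with 1 point per library, coloured by group, and a line at the group mean (linear axes). Itgae lies at 1984 to 3075 in thymus and at most 46.9 elsewhere, Itga1 is lowest in spleen, and Itgb3 is low in thymus and in both BALB/c groups.

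Itgae, the CD103 chain (chromosome 11, 73090583 to 73147446 in GRCm38.p6), showed the widest range of the 10 members on the log scale. It had 3075, 1984 and 2302 normalized reads in the 3 thymus libraries, against 11.5, 17.3 and 40.17 in blood, 10.5, 3.01 and 13.1 in BL6 liver_H, 2.20, 4.14 and 6.82 in BL6 liver_C and 19.7, 46.9 and 41.3 in spleen. BALB/c liver_H had 21.2, 36.3 and 0 and BALB/c liver_C 0 and 3.65. Every thymus library exceeded each of the other 17 libraries. The log2 fold change in thymus was 6.12 ± 0.95 (SE) over spleen (adjusted p = 1.72e-04), 8.90 ± 0.95 over liver_C (adjusted p = 1.84e-06) and 6.84 ± 0.95 over blood (adjusted p = 6.51e-05). Itgb7, which encodes its β partner, did not follow it: thymus had 2907 ± 540.3 normalized reads and spleen 3127 ± 284 (SD, n = 3 each), with a 95% interval of the log2 fold change of -0.40 to 0.16. The ratio of Itgae to Itgb7 per kilobase was 0.472 to 0.527 in the thymus libraries and at most 0.00870 in every other library. Cdh1, which encodes the ligand E-cadherin, was itself higher in thymus, at 530.2 ± 61.3 normalized reads against 3.97 ± 4.10 in spleen (SD, n = 3 each; log2 fold change 7.24, adjusted p = 1.98e-05).

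The thymocyte markers were also high in the thymus libraries. Rag1 had 7357, 14000.1 and 10481 normalized reads in the thymus libraries, in the order in which Itgae is given above. Outside thymus, the libraries with over 300 normalized reads of Rag1 were blood N0962 and N1378, BL6 liver_H N0969 and BALB/c liver_H N0971. They held 0.748, 3.56, 0.730 and 1.58 reads of Itgae per 100 reads of Rag1, whereas the thymus libraries held 41.8, 14.2 and 21.96. This gap holds only for libraries over 300, since those under it did not all lie below thymus. Blood N1382, spleen N1377 and BALB/c liver_H N0972 had 88.76, 56.75 and 22.12 normalized reads of Rag1 beside 40.17, 46.9 and 36.3 of Itgae. BL6 liver_H N0963 and BALB/c liver_C N0970 had 277.7 and 265.2 of Rag1 beside 10.5 and 0 of Itgae. The part of double-positive thymocytes in the thymus values of the integrin genes was not tested.

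**Figure D3:**
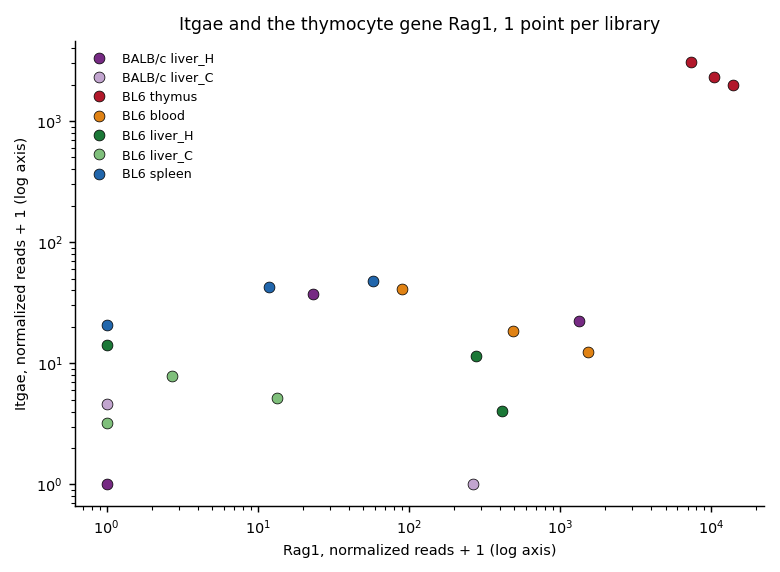
Itgae against the thymocyte gene Rag1 in each of the 20 libraries, as normalized reads + 1 on log axes, coloured by group. The 3 thymus libraries lie at the upper right. Blood N0962 and BALB/c liver_H N0971, with over 1000 normalized reads of Rag1, lie at 11.5 and 21.2 of Itgae.

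Among the organs outside thymus, Itgae was low but not even. Its values in liver_H and in liver_C of BL6 did not overlap those of spleen, with log2 fold changes of -2.01 ± 0.95 and -2.78 ± 0.95 over spleen that missed the threshold (adjusted p = 0.200 and 0.248). At 2.20 to 46.9 normalized reads these differences rested on few reads. For liver_C, edgeR and DESeq2, run on read counts recovered from the normalized values, gave adjusted p = 0.0411 and 0.0484, and the adjusted p ranged over 0.00155 to 0.628 in all alternatives.

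Itga6, the laminin-binding α chain, was the other member that was higher in thymus than in all 3 groups it was compared with. Its values were 682, 730.5 and 612 normalized reads in thymus, against 387, 389.6 and 374 in blood, 319, 349.5 and 282 in BL6 liver_C and 307, 252 and 314 in spleen, so that no thymus library overlapped the other 3 groups. The log2 fold change in thymus was 1.21 ± 0.14 (SE) over spleen (adjusted p = 6.46e-06), 1.09 ± 0.14 over liver_C (adjusted p = 2.68e-05) and 0.81 ± 0.14 over blood (adjusted p = 9.59e-04). These 3 calls and those of Itgae held in each alternative run.

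Both chains of LFA-1 were lower in thymus than in liver_C and blood, and Itgb2 was lower than in spleen as well. Itgb2 had 9475, 7448 and 8156 normalized reads in thymus, against 14547, 15131 and 15108 in blood, 17282, 15534 and 16250.0 in BL6 liver_C and 15395, 13434 and 12942 in spleen, and no thymus library reached the lowest of the other 9. Its log2 fold change was -0.74 ± 0.16 (SE) over spleen (adjusted p = 0.00301), -0.97 ± 0.16 over liver_C (adjusted p = 2.37e-04) and -0.84 ± 0.16 over blood (adjusted p = 0.00140). Itgal had 8609.7, 8359 and 5897 normalized reads in thymus, against 15215, 11509.9 and 13041 in blood, 16304, 11762 and 12776 in BL6 liver_C and 12176, 9458 and 8508 in spleen. It was called lower than in liver_C (log2 fold change -0.84 ± 0.22, adjusted p = 0.0150) and than in blood (-0.81 ± 0.22, adjusted p = 0.0259), but not than in spleen, whose range it overlapped (-0.40 ± 0.22, 95% interval -0.85 to 0.05). The Itgal calls rested on single libraries: without thymus N1380 the adjusted p was 0.115 for liver_C and 0.172 for blood, without liver_C N1224 it was 0.0953, and without blood N0962 or N1382 it was 0.120 or 0.0788. Icam1, which encodes a ligand of LFA-1, had 568 ± 80.8 normalized reads in thymus and 1193 ± 197 in spleen (SD, n = 3 each; log2 fold change -1.07, adjusted p = 3.50e-04). This gene was also called lower in thymus than in liver_C (1110 ± 221), but not than in blood (736 ± 6.67).

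Among the 10 members, Itgb3 had the lowest log2 fold changes in thymus in all 3 comparisons. It had 1518, 1099.9 and 979.8 normalized reads there, against 3123, 2798 and 2921 in blood, 2132, 2813 and 2639 in BL6 liver_C and 3023, 3948 and 3175 in spleen. No thymus library overlapped these groups, and the log2 fold change was -1.51 ± 0.19 (SE) over spleen (adjusted p = 1.41e-05), -1.09 ± 0.19 over liver_C (adjusted p = 5.69e-04) and -1.32 ± 0.19 over blood (adjusted p = 9.93e-05). Platelets also carry the Itgb3 product, and 10 platelet and megakaryocyte markers summed to 3.15 to 12.6 normalized reads in thymus, 8.41 to 204 in blood, 4.14 to 8.80 in BL6 liver_C and 1.97 to 13.6 in spleen. Of these 10 markers, 5 were at 0 in every thymus library, 6 in every BL6 liver_C library, 7 in every spleen library and 2 in every blood library. Erythroid markers (6 genes) summed to 1.26 to 44.1 normalized reads in thymus and 156 to 1572 in blood, and the part of either list in the differences from blood was not tested. Itgb1 had 2987, 3301 and 3649 normalized reads in thymus, against 5342, 5660.1 and 5327 in blood, 4794, 5801 and 5395 in BL6 liver_C and 4747, 3991 and 4141 in spleen. It was lower in thymus than in liver_C (-0.69 ± 0.12, adjusted p = 7.14e-04) and in blood (-0.72 ± 0.12, adjusted p = 6.20e-04), and the difference from spleen missed the threshold (-0.37 ± 0.12, adjusted p = 0.0582) although the values did not overlap. That difference was called in 4 alternatives, among them DESeq2 (adjusted p = 0.0252) and the filter at 300 (adjusted p = 0.0336), with adjusted p of 0.0252 to 0.245 over all of them. Itgav had 568, 462 and 581 normalized reads in thymus, against 774 to 836 in blood, 763 to 869.7 in BL6 liver_C and 656 to 774 in spleen, without overlap with thymus. Its log2 fold change was -0.60 ± 0.14 over liver_C (adjusted p = 0.00748) and -0.60 ± 0.14 over blood (adjusted p = 0.0105), and without thymus N1376 neither was called (adjusted p = 0.0594 and 0.0679). Over spleen it was not called (-0.38 ± 0.14, adjusted p = 0.104), except with the library number range as a block (adjusted p = 0.0370) and without BALB/c liver_H N1229 (adjusted p = 0.0390).

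In sum over the members, thymus differed from spleen in 5 of 10, against 9.84% of all genes tested: 3 were higher, against 5.79%, and 2 were lower, against 4.05%. It differed from liver_C in 7 of 10, against 8.40%, with 2 higher, against 4.27%, and 5 lower, against 4.13%. From blood it differed in 7 of 10, against 6.63%, with 2 higher, against 3.13%, and 5 lower, against 3.49%. The median log2 fold change of the members was -0.25, -0.34 and -0.44 in these 3 comparisons, and that of all genes -0.01, 0.01 and 0.01. The 3 comparisons share the thymus libraries.

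**Figure D4:**
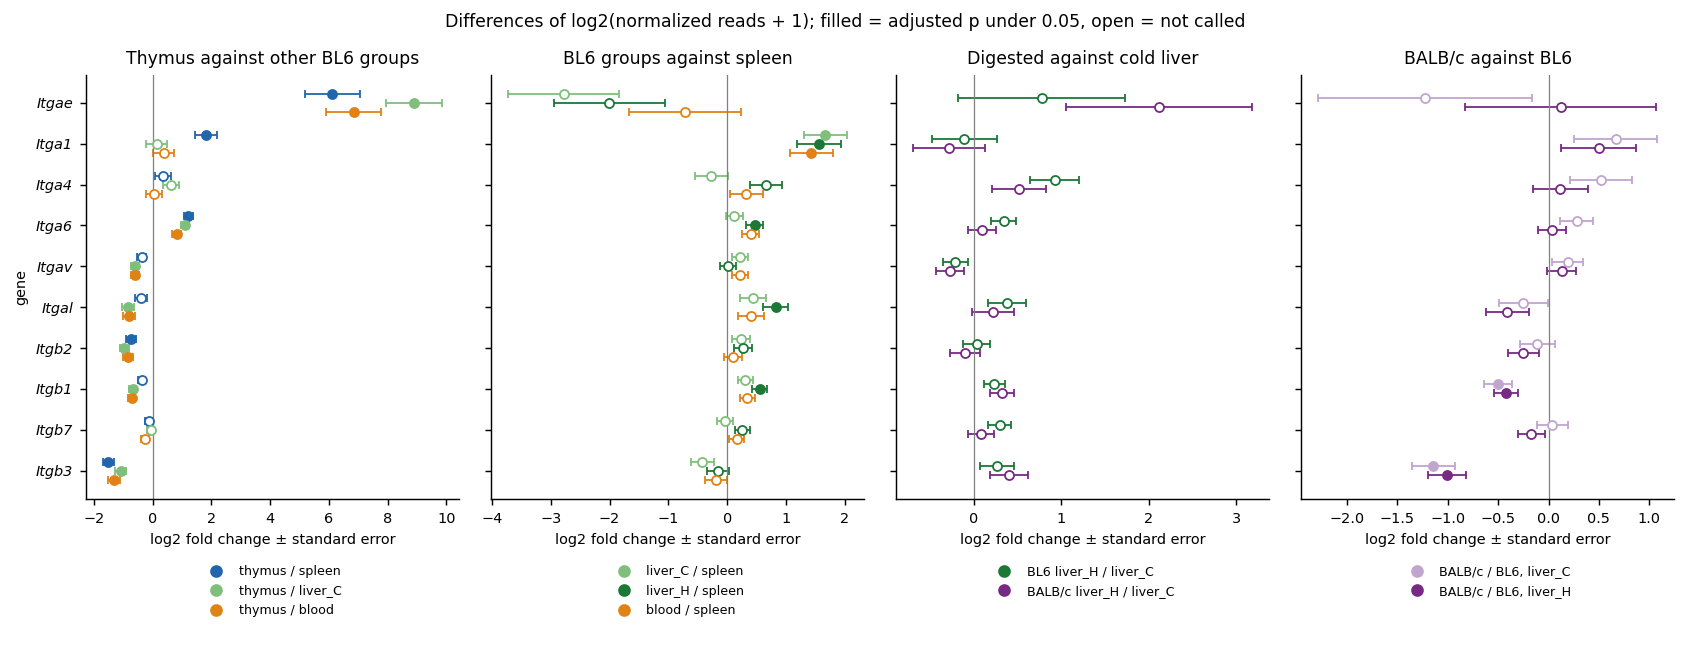
Log2 fold changes of the 10 integrin genes with standard errors, in panels for thymus against the other BL6 groups, for BL6 groups against spleen, for digested against cold liver and for BALB/c against BL6. Filled points are called and open points are not: Itgae and Itga6 lie to the right and Itgb2 and Itgb3 to the left in all 3 thymus comparisons, no member is called between liver_H and liver_C, and Itgb3 lies to the left in both strain comparisons.

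Itga1, the collagen-binding α chain CD49a (chromosome 13, 114953096 to 115101964), was lowest in spleen. It had 1224.01, 1472 and 1152 normalized reads in thymus, 1214, 867 and 918 in blood, 1099, 651 and 1777 in BL6 liver_H and 1815, 903 and 970.4 in BL6 liver_C, against 569.6, 312 and 274 in spleen. No library of these 4 groups overlapped spleen, whereas each of the 4 groups overlapped the other 3. The log2 fold change over spleen was 1.80 ± 0.37 (SE) in thymus (adjusted p = 0.00243), 1.43 ± 0.37 in blood (adjusted p = 0.04998), 1.57 ± 0.37 in liver_H (adjusted p = 0.0121) and 1.67 ± 0.37 in liver_C (adjusted p = 0.0230). The call in thymus held in each alternative run, but that in blood was lost in 19 of 31 alternatives, edgeR (adjusted p = 0.0747) and DESeq2 (adjusted p = 0.0628) included, with adjusted p of 2.32e-06 to 0.234 over all of them. The call in liver_H was lost without liver_H N1225 (adjusted p = 0.0744) or spleen N1377 or N1381 (0.0618 or 0.0734), and that in liver_C without liver_C N1224 or N1383 (0.159 or 0.0545) or spleen N1377 or N1381 (0.130 or 0.156). Itga1 shares 685 exon bases with Gm49395 on the same strand, a gene with at most 29.4 normalized reads in any library. Markers of B and plasma cells (9 genes) summed to 25.3 to 307 normalized reads in thymus, 62.6 to 255 in blood, 28.6 to 141 in BL6 liver_H, 17.04 to 32.5 in BL6 liver_C and 506 to 1091 in spleen, and their part in the spleen values was not tested.

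Against spleen, liver_C was called in 1 of 10 members, Itga1, against 1.23% of all genes (0.812% higher), and blood likewise in 1, Itga1, against 1.82% (1.39% higher). The paper describes a Percoll gradient for liver cells but not for spleen cells, so organ and preparation cannot be told apart for liver_C over spleen. Liver_H and spleen differed in the enzyme step as well, and organ and preparation cannot be told apart in this comparison either. Liver_H was called in 4 of 10 members, all higher than in spleen, against 8.09% of all genes in either direction and 4.62% higher. Besides Itga1 these were Itgal, with 19180.3, 16989 and 16664 normalized reads in liver_H and 12176, 9458 and 8508 in spleen (log2 fold change 0.82 ± 0.22, adjusted p = 0.0223), and Itgb1, with 6109, 5938 and 6801 in liver_H and 4747, 3991 and 4141 in spleen (0.55 ± 0.12, adjusted p = 0.00820). The fourth was Itga6, with 437, 392 and 375 in liver_H and 307, 252 and 314 in spleen (0.47 ± 0.14, adjusted p = 0.0482). Values of liver_H and spleen did not overlap for 7 of the 10 members, against 31.3% of all genes. The Itga6 call was lost in 20 of 30 alternatives (adjusted p 0.0279 to 0.213), that of Itgal without liver_H N0963 or N0969 (0.0817 or 0.0560) or spleen N1377 or N1381 (0.0861 or 0.116), and that of Itgb1 without spleen N1377 (0.0514). Hepatocyte markers (7 genes) summed to 56.2 to 150 normalized reads in liver_H and 1.23 to 13.8 in spleen, and erythroid markers (6 genes) to 137 to 906 in liver_H and 62.0 to 151 in spleen. Of the 8 iNKT1 genes, 3 were also higher in liver_H, and the part of these lists in the integrin values was not tested.

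Digested and cold liver of the same strain, which differ in preparation, were also compared. The paper reports higher yields of iNKT1 cells after cold isolation, and the part of cell recovery in the integrin values was not tested. Only library number range N12 holds both preparations of BL6. In BL6, no member was called between liver_H and liver_C by limma (3 at an unadjusted p under 0.05, 0 by edgeR and 1 by DESeq2), against 1.05% of all genes, although 6 of 10 members did not overlap, against 19.9%. Itga4, the α chain of the VCAM and MAdCAM receptors, differed most: it had 891, 774 and 937 normalized reads in liver_H and 534, 415 and 424 in liver_C, all 3 liver_H libraries above all 3 of liver_C. Its log2 fold change of 0.93 ± 0.27 (SE) missed the threshold (adjusted p = 0.125), was called by DESeq2 (adjusted p = 0.0400), and had adjusted p of 0.00505 to 0.363 over the alternatives. Itga4 shares 1124 exon bases with Cerkl on the opposite strand, which averaged 23.6 normalized reads. For Itgb2 the 95% interval of the log2 fold change between liver_H and liver_C was -0.29 to 0.36, for Itgav -0.50 to 0.08, for Itgb3 -0.13 to 0.66 and for Itga1 -0.88 to 0.66.

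In BALB/c, liver_H and liver_C differed in none of the members by limma (1 at an unadjusted p under 0.05, 0 by edgeR and 0 by DESeq2), against 0.628% of all genes. Itgb1 had 4443, 4709 and 4895 normalized reads in liver_H and 3376 and 4155 in liver_C, without overlap (log2 fold change 0.32 ± 0.14, adjusted p = 0.362). Itga4 had 873, 825 and 1144 in liver_H and 481 and 883 in liver_C, with a 95% interval of the log2 fold change of -0.12 to 1.16. The test of whether digestion acted differently in both strains called 0 members and 0% of all genes with limma, 0 members at an unadjusted p under 0.05, and 0 members with edgeR and with DESeq2. For Itga4 the 95% interval of that difference (BALB/c minus BL6) was -1.26 to 0.46 on the log2 scale. Itgae, which was at 0 in BALB/c liver_H N1229, was called higher in BALB/c liver_H than in liver_C without that library (log2 fold change 3.74, adjusted p = 0.0173), against 2.12 ± 1.06 (adjusted p = 0.444) with it.

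Itgb3 (chromosome 11, 104608000 to 104670476) separated the strains. In liver_H it had 1371, 1989 and 1246 normalized reads in BALB/c and 3730.0, 3129 and 2371 in BL6 (log2 fold change -1.01 ± 0.19, adjusted p = 0.00171). In liver_C it had 1111 and 1158 in BALB/c and 2132, 2813 and 2639 in BL6 (-1.15 ± 0.21, adjusted p = 0.00178). Neither preparation showed an overlap of the strains, and both calls held in each of 30 alternatives. Itgb1 was lower in BALB/c as well, with 4443, 4709 and 4895 normalized reads in BALB/c liver_H and 6109, 5938 and 6801 in BL6 liver_H (-0.42 ± 0.12, adjusted p = 0.0428), and 3376 and 4155 in BALB/c liver_C and 4794, 5801 and 5395 in BL6 liver_C (-0.50 ± 0.14, adjusted p = 0.0421). These 2 calls lay near the threshold and were lost in 14 and 15 of 30 alternatives, with adjusted p of 0.0115 to 0.157 in liver_H and 0.00500 to 0.617 in liver_C. The members called between strains were 2 of 10 in liver_H, both lower in BALB/c, against 6.10% of all genes in either direction and 3.29% lower, and the same 2 in liver_C, against 3.52% and 2.13%. Itgav, the α partner of Itgb3, was not called in either (log2 fold change 0.13 ± 0.14 in liver_H and 0.19 ± 0.16 in liver_C), and the ratio of Itgav to Itgb3 per kilobase was 0.236 to 0.351 in BALB/c liver_H against 0.108 to 0.164 in BL6 liver_H, and 0.427 to 0.469 in BALB/c liver_C against 0.167 to 0.196 in BL6 liver_C. Reads of both strains were aligned to the same reference genome, and hepatocyte markers summed to 19.3 to 1235 normalized reads in BALB/c liver_H and 56.2 to 150 in BL6 liver_H. The part of either in the strain differences was not tested.

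Itga4 and Itgb7, the chains of the MAdCAM receptor, were called in none of the 11 comparisons with limma, nor in the test of the strain difference. Itgb7 had the smallest ratio of highest to lowest value among the members, with values between 2543 and 4325 normalized reads over all 20 libraries, with neighbouring groups overlapping all along the order of their means. Itga4 ranged more widely, with the spread lying within groups as well: thymus alone had 404, 1061 and 808 normalized reads. Without thymus N0967 Itga4 was called higher in thymus than in liver_C (log2 fold change 1.02, adjusted p = 0.00998), against 0.63 ± 0.27 (adjusted p = 0.199) with it. The same difference was called with all libraries and the library number range as a block (adjusted p = 0.0415), and in the libraries of range N13 only (adjusted p = 6.54e-04), in which it was also called over spleen (adjusted p = 0.00863). Between blood and liver_C, 0 members were called by limma (2 at an unadjusted p under 0.05, 0 by edgeR and 0 by DESeq2), against 0.0706% of all genes.

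The library numbers of the labels fall into 3 ranges (N09, N12 and N13), and the 5 libraries of range N12 are spread over 5 groups. For Itga1, Itga4 and Itgb2 the N12 library was the highest of its group in 5 of 5 groups, which 4.81% of all genes tested showed. In BALB/c liver_C, for example, Itga1 had 2934 normalized reads in the N12 library and 1171 in the N09 library. The BL6 liver_H libraries lie in N09 and N12, and those of BL6 liver_C and spleen in N12 and N13. What the ranges stand for is not given in the sources used here. With the range as a block in the fit, Itga1 had adjusted p = 2.37e-05 for liver_H, 3.74e-06 for liver_C, 2.32e-06 for blood and 1.20e-08 for thymus over spleen. Within range N13 alone, an alternative chosen after seeing the data, which holds 2 libraries each of thymus, blood, liver_C and spleen, its log2 fold change over spleen was 2.15 in thymus, 1.61 in blood and 1.68 in liver_C, all called.

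**Figure D5:**
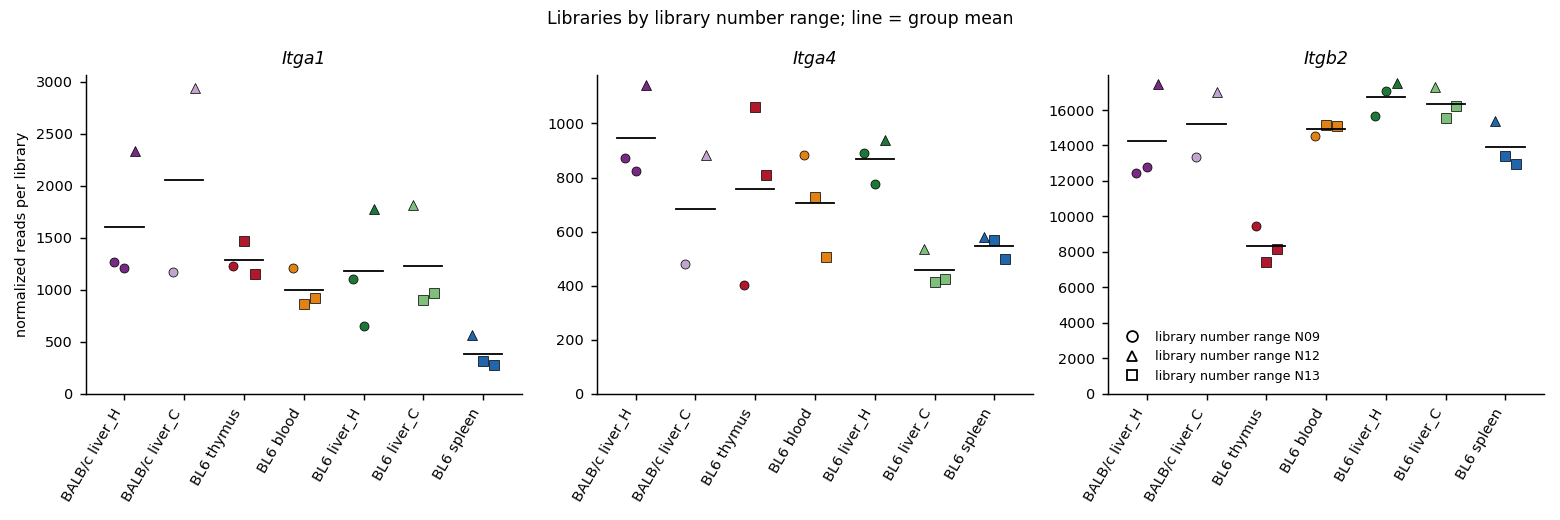
Normalized reads of Itga1, Itga4 and Itgb2 by group (linear axes from 0), with the shape of each point giving the library number range and a line at the group mean. Triangles, the 5 libraries of range N12, are the highest point of their group in all 5 groups that hold one.

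The other 17 integrin subunit genes of the table were sparse, and 6 of them passed the filter on low values. Itga2, a second collagen-binding α chain, was the most abundant, at 136 to 334 normalized reads over the 20 libraries, followed by Itga3 at 16.4 to 127 and Itga5 at 35.4 to 108. None of these 6 was called in any comparison. Itgam, the α chain that pairs with Itgb2 on myeloid cells, had at most 5.25 normalized reads, Itgb4, which pairs with Itga6 in epithelium, at most 6.40, and Itga2b, the platelet partner of Itgb3, at most 70.1, in blood.

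Genes that act with integrins were counted by lists, to be read against the 9.84% of all genes tested that were called in thymus over spleen (5.79% higher and 4.05% lower). Of 15 tested genes of integrin activation, which links talin, kindlin and Rap proteins to the β chain, 0 were higher and 1 was lower in thymus than in spleen: Apbb1ip, which encodes the Rap effector RIAM, had 1836 ± 91.0 normalized reads in thymus and 2742 ± 320.5 in spleen (SD, n = 3 each; log2 fold change -0.57, adjusted p = 0.0352). It was also lower in thymus than in liver_C (-0.65) and blood (-0.71). Among 8 restraining genes, Flna, whose product filamin A competes with talin for the β tail, was higher in thymus than in spleen, with 7243 ± 1335 and 3068 ± 225 normalized reads (SD, n = 3 each; 1.23, adjusted p = 1.31e-04). Of 15 adhesion complex genes, 3 were higher and 1 was lower in thymus than in spleen: the actin cross-linker Actn1 (2.90), the integrin-linked kinase Ilk (0.67) and Zyx (0.92) were higher, and the docking protein gene Nedd9 (-0.76) was lower, as it also was than in liver_C (-1.20) and blood (-1.07). Of 8 tested ligand genes, Cdh1 was higher and Icam1 lower, as given above. Of 13 membrane partners, 0 were higher and 4 lower in thymus than in spleen, among them Cd226, a partner of LFA-1 on T cells, with 1764 ± 289 and 5782 ± 566 normalized reads (SD, n = 3 each; -1.72, adjusted p = 1.10e-07), the tetraspanin genes Cd37 (-0.62) and Cd82 (-0.82), and Cd47 (-0.58), the integrin-associated protein gene. Actn1 was also called higher in thymus than in liver_C and blood, whereas Ilk and Zyx were called in neither comparison. Zyx had 3153 ± 478 normalized reads in thymus, 2721 ± 234 in blood, 2427 ± 228 in liver_C and 1662 ± 250 in spleen (SD, n = 3 each). Flna and Cd82 were called in the same direction against liver_C, but not against blood. Nedd9 and Cd47, each outside the first 3 of its list by adjusted p against spleen, were named after their values were seen. The double-positive thymocyte markers stood apart in the same libraries, as given above.

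In liver_H over spleen, where organ and preparation cannot be told apart, 8.09% of all genes were called and 4.62% were higher. Each list held 1 or 2 calls. There 1 of 15 activation genes (Vasp, 0.53), 2 of 8 restraining genes (Flna, 0.74, and the Rap inactivator Sipa1, 0.86), 1 of 8 ligand genes (Tgfb1, whose latent form binds Itgav integrins, 0.71) and 1 of 13 membrane partners (Selplg, 0.67) were higher on the log2 scale, and none of these 4 lists had a lower gene. Of 15 adhesion complex genes, Zyx was higher (1.06) and Tgfb1i1 lower (-2.79). The Tgfb1i1 difference rested on few reads, with 0 to 9.43 normalized reads in liver_H and 18.03 to 43.2 in spleen. Between strains, Cd81, a tetraspanin gene, was higher in BALB/c, with 426 ± 53.9 normalized reads in BALB/c liver_H and 146 ± 28.5 in BL6 liver_H (SD, n = 3 each; 1.55, adjusted p = 6.67e-04) and 1.63 in liver_C (adjusted p = 0.00151).

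Across the 20 libraries, the gene whose log2 values were most like those of a member was named for each by Pearson's r among 5190 genes averaging at least 300 normalized reads, as a description only, since the points share libraries and depth. Itgal had the closest match, Sept9 (r = 0.98), followed by Itgb2 with Trip4 (0.94), Itgb1 with Capzb (0.91), Itga1 with Atp2b4 (0.90), Itga6 with Tox (0.89) and Itgae with Atp11b (0.89). Itgb3 was most like Tox4 (0.88), Itgav like Dusp6 (0.87), Itga4 like Atp10a (0.83) and Itgb7 like Ucp2 (0.78).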

How the data were processed

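RNA of sorted CD4+ iNKT1 cells (10700 to 209900 cells per library) was sequenced as 75-base single reads from a stranded total RNA kit. The authors trimmed reads with Trim Galore 0.4.4, aligned them with STAR, counted them with featureCounts on GENCODE M17 (GRCm38.p6) and normalized them with DESeq2. The deposited values are a signal in normalized reads, a read count divided by a size factor per library, beside a gene length that was used for levels per kilobase. Whether the counting used strand is not given in the sources used here. The authors' columns of fold changes and p-values were not used.

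Whole reads were recovered for at least 99.979% of values in each library (within 0.05 of a whole number), giving 9336861 to 22879834 reads per library (median 12457757). Itgae outside thymus lay at few reads, which limits its precision.

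The main test was limma 3.58.1 in R 4.3.3 on log2(normalized reads + 1) with all 7 groups in the fit, over the 14170 of 53714 genes that reached 10 normalized reads in 3 or more libraries, with Benjamini-Hochberg adjustment over these genes and a threshold of 0.05. Errors are SD over libraries or SE of the fit, and fold changes understate the change of genes with few reads. Libraries were grouped by the labels, and scripts were tested on simulated data. Alternatives were pseudocounts of 0.5 and 10, no filter, a filter at 300, TMM normalization, edgeR 4.0.16 and DESeq2 1.42.0 on recovered reads, only the groups compared, the library number range as a block, each library left out, and, chosen after seeing the data, all N12 libraries left out and N13 libraries only.

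The 10 members were all named. Of each list of related genes, up to 3 called genes with the smallest adjusted p per comparison were named, and for each member the gene with the highest r. Members and lists were chosen with earlier results of these data known. Some results of these lists are not reported here. Promoters came from RefSeq.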

Additional observations from a re-analysis of the deposited data

How the results depend on the processing

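Of the 29 calls of a member in a comparison, 17 held under every alternative that could be run, 12 were lost under at least 1 and 0 reversed, while 15 of 91 pairs without a call gained one under at least 1. The members called in liver_C over spleen numbered 1, but 0 with no filter on low values and 2 with only the groups compared, with edgeR, with DESeq2, without range N12 and in range N13 only. In blood over spleen there was 1, but 0 with TMM normalization, no filter, the filter at 300, a pseudocount of 0.5, edgeR or DESeq2, and 2 with the range as a block, without range N12 and in range N13 only. The count for BL6 liver_H over liver_C was 0, but 1 with only the groups compared and with DESeq2, that for blood over liver_C was 0, but 1 in range N13 only, and that for BALB/c liver_H over liver_C was 0, but 1 without range N12. For BALB/c over BL6, the 2 members in liver_C became 1 with TMM normalization, no filter, only the groups compared, the range as a block or edgeR, and the 2 in liver_H became 1 with no filter or only the groups compared and 4 without range N12. Without range N12 the count in liver_C was 3, with Itgae gained. The count in thymus over spleen (5) was 6 with DESeq2, the filter at 300 (Itgb1 gained in both), the block (Itgav) and range N13 only (Itga4), that in thymus over liver_C (7) was 8 with the block and in range N13 only (Itga4), and that in thymus over blood (7) was 8 in range N13 only (Itga1). In liver_H over spleen (4) it was 5 with only the groups compared and without range N12, and 3 with the block and with no filter. The cause of these changes was not tested.

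With 1 library left out, the count ranged from 0 to 2 in liver_C over spleen, 0 to 5 in liver_H over spleen, 0 to 1 in BL6 liver_H over liver_C and in blood over spleen, 5 to 6 in thymus over spleen, 6 to 8 in thymus over liver_C, 6 to 7 in thymus over blood, 0 to 1 in BALB/c liver_H over liver_C, and 1 to 2 in BALB/c over BL6 in either preparation. It stayed at 0 in blood over liver_C and for the strain difference. Where this left 1 BALB/c liver_C library, it was assumed to vary like the other groups. Without spleen N1377, liver_H over spleen had 0 members. No paired analysis was possible because the labels share no replicate number between groups and do not say which libraries were made together. The range of the library numbers was fitted as a block instead.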

Other observations

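Cdh1, the E-cadherin gene, had 530.2 ± 61.3 normalized reads in thymus, 2.15 ± 1.96 in blood and 6.87 ± 3.96 in BL6 liver_C (SD, n = 3 each), with log2 fold changes of 7.67 and 6.23. Actn1, the actin cross-linker gene, had 542 ± 174 in thymus, 75.2 ± 55.9 in blood and 27.1 ± 10.3 in liver_C (3.03 and 4.29), and Cd226 had 1764 ± 289, 5175 ± 537 and 5974 ± 199 in the same order (-1.56 and -1.77). All 6 of these differences were called by limma, with adjusted p from 7.60e-08 (Cd226) to 9.63e-04 (Actn1), and the part of the thymocytes in these libraries was not tested.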
